A study of Mus musculus with 6 samples.

Results

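The 10 genes described here encode the mouse translesion polymerases (Polh, Poli, Polk, Rev1, Rev3l and Mad2l2), the ligase that recruits them (Rad18), a primase that restarts synthesis ahead of a lesion (Ccdc111, now Primpol) and a pair of fork reversal enzymes (Smarcal1 and Zranb3). They were chosen by function, with earlier results of these data known, and matched by symbol. All 10 were found among the 23235 genes of the table. The 3 tested libraries came from Hmces knockout mice and the 3 controls from wild-type (WT) mice, all labelled C57BL/6 and aged 2 months. Each library was made by Smart-seq2 amplification of RNA from 1500 long-term haematopoietic stem cells (LT-HSCs) sorted from bone marrow. The labels name neither the Hmces allele nor the sorting antibodies, every library title of both genotypes carries an unexplained 13 bp tag, and the design text speaks of duplicates where the labels list 3 libraries per genotype. No treatment is named in the labels.

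HMCES binds abasic sites, bases lost from single-stranded DNA, and shields them while a replication fork passes. A fork that meets an unshielded lesion can use other routes. Translesion polymerases copy across the damaged base after RAD18 attaches ubiquitin to the sliding clamp PCNA. PRIMPOL instead lays down a new primer beyond the lesion and leaves a gap, whereas SMARCAL1 and ZRANB3 fold the fork back so that the lesion returns to double-stranded DNA. The comparison asks whether transcripts of these routes differ in stem cells that lack HMCES.

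Estimated depth, in units of 1e6 fragments, was 9.3 to 11.1 in Hmces knockout libraries and 9.7 to 14.2 in WT libraries. Hmces, listed as 8430410A17Rik, had 8.95, 0.222 and 6.95 FPKM (fragments per kilobase of transcript, scaled to the depth of the library) in knockout replicates 1 to 3, against 39.5, 45.4 and 41.0 FPKM in WT replicates 1 to 3, in the direction of the labels (log2 fold change -3.23, limma adjusted p = 0.289, and -2.27 with adjusted p = 0.046 without knockout replicate 2). That library scored 67.0 on the leading principal component of all libraries, whereas the other 5 scored -33.6 to 10.1, and values without it are given for the genes whose log2 fold change it moved by over 1.5 times, and for Ccdc111 and Rev3l. Of 12 LT-HSC markers, 10 passed the filter described below, and Fgd5 and Hoxb5 averaged under 1 FPKM. The 12 summed to 579 to 593 FPKM in knockout and 505 to 550 FPKM in WT libraries. Ly6a, the most abundant of them, had 353, 257 and 322 FPKM in knockout libraries, against 217, 256 and 220 FPKM in WT libraries. The sum does not describe the list gene by gene. In log2 fold change, 6 of the 10 that passed lay below 0 and 4 above it (middle value -0.17). Without overlap, 2 of these 10 were higher and 0 lower in knockout libraries. The 4 progenitor markers Cd48, Flt3, Cd34 and Fcgr3 summed to 890 to 936 FPKM in knockout and 757 to 848 FPKM in WT libraries. Passing a filter of 1 FPKM does not measure the purity of the cells, which was not tested. Granulocyte and monocyte markers summed to 19209 to 25624 FPKM in knockout libraries and 6988 to 10728 FPKM in WT libraries. S100a8 alone had 12348, 7567 and 9643 FPKM in knockout libraries, against 4103, 5155 and 3148 FPKM in WT libraries. Of 15 tested, 14 had a positive log2 fold change and none was listed at 0 in every library. In limma 2 of them were called (Mpo, adjusted p = 0.0307, and Ctsg, adjusted p = 0.0494). Without overlap, 12 of the 15 were higher and 0 lower in knockout libraries, against 7.47% and 8.34% of all genes tested. Of all 11532 genes tested, 0.113% were called and 48.1% had a positive log2 fold change. No gene was called among the LT-HSC markers or those of progenitor, erythroid, megakaryocyte, lymphoid, macrophage and stromal cells, 40 tested genes in all. Of these 40, 7 were higher and 1 was lower in knockout libraries without overlap, against 7.47% and 8.34% of all genes tested. Among them, chosen after their values were seen, Fcgr3, an Fc receptor gene of myeloid progenitors, averaged 26.3 ± 6.76 FPKM in knockout and 5.56 ± 1.79 FPKM in WT cells (SD, n = 3 each; limma adjusted p = 0.070), and the T cell gene Cd3d 5.73 ± 1.55 FPKM in knockout and 1.499 ± 0.944 FPKM in WT cells (adjusted p = 0.332). The lymphoid receptor gene Il7r averaged 5.33 ± 0.448 FPKM in knockout and 1.64 ± 0.494 FPKM in WT cells (SD, n = 3 each; limma adjusted p = 0.313), and the macrophage gene Fcna 0.507 ± 0.877 FPKM in knockout and 14.2 ± 9.74 FPKM in WT cells (adjusted p = 0.187). Of 7 macrophage and stromal markers tested, 2 had a positive and 5 a negative log2 fold change, with 1 higher and 1 lower without overlap. All 6 lymphoid markers tested were positive, 2 of them without overlap. The T cell gene Cd3e, not tested, had 0, 3.18 and 0 FPKM in knockout libraries, against 0, 0.801 and 0 FPKM in WT libraries. The part of any of these markers in the results below was not tested. In such bulk libraries, fewer cells of a type and less RNA per cell cannot be told apart.

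Ccdc111, which encodes the repriming enzyme, was the 1 member higher in every knockout library than in any WT library. Over the 250 bases before the annotated start in RefSeq's GRCm38.p6, a build that differs from the mm9 named for the FPKM values, 8 of the 10 genes had an entry. A GC box, searched as GGGCGG on both strands, was found in 6 of them, against 35.4% of 27025 genes with a promoter entry, and CCAAT on either strand in 4, against 37.5%. The E box CACGTG was found in 1 of the 8, against 6.86%. The letters TTTNNCGC, an E2F-like pattern, were found in 0 of the 8, against 4.94% of all such genes. The 27025 genes were not limited to those tested here, whereas all 10 genes were tested, so the sets compared are unlike. These matches describe letters and not binding sites.

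In Hmces knockout replicates 1 to 3, Ccdc111 was read at 12.7, 16.4 and 15.3 FPKM, against 8.92, 8.98 and 7.16 FPKM in WT replicates 1 to 3. The lowest knockout value lay above the highest WT value, and the spread within each genotype was small, with a highest-to-lowest ratio of 1.30 in knockout and 1.25 in WT libraries. The means were 14.8 ± 1.93 FPKM in knockout and 8.35 ± 1.03 FPKM in WT cells (SD, n = 3 each), a ratio of 1.77. The log2 fold change of FPKM + 1, a scale that understates changes of low genes, was 0.76 (SE 0.21, 95% interval 0.26 to 1.25). Its unadjusted p in limma was 0.00797, and it did not pass over all genes (limma adjusted p = 0.401). Without knockout replicate 2 the ratio of means was 1.68 and the log2 fold change 0.68 (limma adjusted p = 0.508).

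Mlf1ip (now Cenpu), which encodes a centromere protein, overlaps the far end of Ccdc111 on the other strand. It had 4.34, 6.61 and 6.06 FPKM in knockout libraries, against 8.67, 4.06 and 5.17 FPKM in WT libraries, with overlapping groups (log2 fold change -0.02, 95% interval -0.77 to 0.73). Whether counting used strand is unknown here, so reads of the overlap cannot be assigned with certainty. The non-coding gene Gm45607 also overlaps Ccdc111 in the annotation, over 8623 nt, and had no match among the genes with FPKM values. The difference between Ccdc111 and Mlf1ip was not tested.

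**Figure D1:**
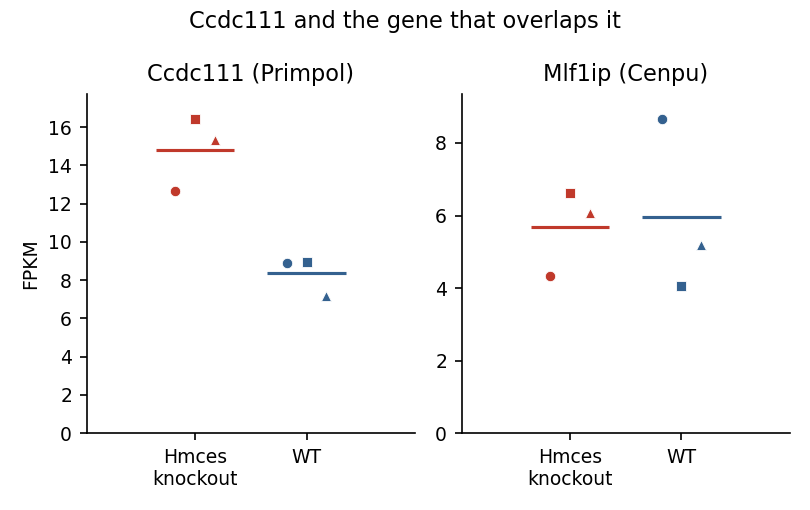
FPKM of Ccdc111 (now Primpol) and Mlf1ip (now Cenpu) in each library, on separate linear axes that start at 0, with Hmces knockout left of WT, 1 symbol per replicate and the group mean as a bar. The 3 knockout values of Ccdc111, 12.7 to 16.4 FPKM, lie above the 3 WT values, 7.16 to 8.98 FPKM, whereas the groups of Mlf1ip overlap.

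Rev3l, which encodes the catalytic subunit of polymerase zeta, the enzyme that extends DNA past a lesion, was the 1 member lower in every knockout library than in any WT library. It had 0.970, 0.196 and 1.004 FPKM in Hmces knockout replicates 1 to 3, against 2.06, 1.47 and 2.91 FPKM in WT replicates 1 to 3. Knockout replicate 2 was far below the other knockout libraries, yet those also lay under the lowest WT value. On the longest coding transcript in GENCODE M21, 10713 nt, these levels correspond to an estimated 97, 23 and 98 fragments in knockout and 210, 202 and 434 in WT libraries.

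The mean of Rev3l was 0.723 ± 0.457 FPKM in knockout and 2.15 ± 0.725 FPKM in WT cells (SD, n = 3 each), so the knockout mean was 33.7% of the other. The log2 fold change was -0.88 (SE 0.39, 95% interval -1.78 to 0.01) and did not pass (limma unadjusted p = 0.0527, adjusted p = 0.548). Without knockout replicate 2 it was -0.64 (adjusted p = 0.581). With a pseudocount of 0.1, which compresses low values less, it was -1.62 (adjusted p = 0.588). Over 441 tested genes with a coding transcript of at least 8000 nt the median log2 fold change was 0.07, and in knockout replicate 2 their median level was 0.24 (log2) above the mean of the other libraries. Of that class, 4.54% were lower in every knockout library, against 8.34% of all genes tested. The part of transcript length in the level of Rev3l was not tested. The non-coding gene E130307A14Rik overlaps Rev3l in the annotation and had 4.80, 6.46 and 4.48 FPKM in knockout libraries, against 7.60, 8.42 and 4.42 FPKM in WT libraries, with overlapping groups.

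Mad2l2 encodes REV7, the small adaptor that links REV3L to REV1 and also serves in the shieldin complex at DNA breaks. Mad2l2 had 54.1, 33.2 and 31.2 FPKM in Hmces knockout replicates 1 to 3, against 43.8, 50.4 and 38.5 FPKM in WT replicates 1 to 3, with 2 knockout values below all WT values and 1 above them. The means were 39.5 ± 12.7 FPKM in knockout and 44.2 ± 5.95 FPKM in WT cells (SD, n = 3 each; log2 fold change -0.19, 95% interval -0.72 to 0.34, limma adjusted p = 0.816). It was -0.09 without knockout replicate 2, and ran from -0.44 without knockout replicate 1 to -0.05 without knockout replicate 3.

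Rev1 encodes a polymerase that inserts cytosine and a scaffold on which the other translesion polymerases exchange. It was read at 7.76, 1.47 and 6.15 FPKM in Hmces knockout replicates 1 to 3, against 3.29, 4.93 and 3.77 FPKM in WT replicates 1 to 3. In knockout cells 2 libraries lay above every WT value and replicate 2 lay below all of them, a 5.28-fold range against 1.497-fold in WT. The log2 fold change was 0.12 (SE 0.49, 95% interval -1.01 to 1.24, limma adjusted p = 0.964). It was 0.68 without knockout replicate 2 (adjusted p = 0.555), and turned to -0.24 without knockout replicate 1 and to -0.09 without knockout replicate 3. Eif5b, a translation factor gene that overlaps Rev1 in the annotation, had 7.69, 13.2 and 10.1 FPKM in knockout libraries, against 10.3, 9.96 and 13.7 FPKM in WT libraries, and knockout replicate 2 was there the highest of its genotype.

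The inserter polymerases of the Y family overlapped between genotypes. Polh encodes polymerase eta, which copies across ultraviolet dimers. It had 4.84, 3.71 and 2.16 FPKM in Hmces knockout replicates 1 to 3, against 3.29, 3.42 and 1.74 FPKM in WT replicates 1 to 3 (log2 fold change 0.25, 95% interval -0.59 to 1.09, limma adjusted p = 0.857). The third replicate was the lowest of its genotype in both groups, and the log2 fold change ran from 0.03 without WT replicate 3 to 0.49 without knockout replicate 3, with 0.05 without knockout replicate 1.

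Poli encodes polymerase iota, an error-prone inserter. It was read at 16.6, 17.5 and 11.3 FPKM in Hmces knockout replicates 1 to 3, against 12.8, 13.4 and 10.3 FPKM in WT replicates 1 to 3. Knockout replicates 1 and 2 lay above all WT values and replicate 3 within them (log2 fold change 0.28, 95% interval -0.26 to 0.82, limma adjusted p = 0.738). It was 0.17 without knockout replicate 2 or WT replicate 3, and 0.46 without knockout replicate 3. Polk encodes polymerase kappa, which copies across bulky adducts on guanine. Its levels were 2.96, 4.51 and 6.69 FPKM in knockout libraries, against 3.52, 4.43 and 4.38 FPKM in WT libraries, so the knockout values spanned the WT range on both sides. The log2 fold change was 0.12 (95% interval -0.63 to 0.86, limma adjusted p = 0.938) and turned to -0.12 without knockout replicate 3.

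Rad18, the gene of the PCNA ubiquitin ligase that recruits these polymerases, had 20.7, 24.1 and 13.1 FPKM in Hmces knockout replicates 1 to 3, against 21.0, 21.3 and 24.6 FPKM in WT replicates 1 to 3. Knockout replicates 1 and 3 lay below every WT value and replicate 2 within the WT range. The means were 19.3 ± 5.66 FPKM in knockout and 22.3 ± 1.99 FPKM in WT cells (SD, n = 3 each; log2 fold change -0.24, 95% interval -0.80 to 0.32, limma adjusted p = 0.786). The log2 fold change was 0.0057 without knockout replicate 3 and -0.41 without knockout replicate 2.

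The fork reversal genes also overlapped between genotypes. Smarcal1 encodes an annealing helicase that is brought to forks by RPA. It had 6.57, 6.88 and 4.34 FPKM in Hmces knockout replicates 1 to 3, against 4.67, 5.50 and 4.95 FPKM in WT replicates 1 to 3, so 2 knockout values lay above and 1 below the WT range (log2 fold change 0.18, 95% interval -0.45 to 0.81, limma adjusted p = 0.863). Leaving out knockout replicate 1, 2 or 3 gave 0.10, 0.08 or 0.36. Zranb3 encodes a translocase that binds polyubiquitinated PCNA. It was read at 4.90, 3.04 and 5.10 FPKM in knockout libraries, against 5.67, 2.42 and 1.37 FPKM in WT libraries. Here the WT libraries were the more variable, with a 4.15-fold range against 1.68-fold in knockout, and WT replicate 1 held the highest value of all 6 (log2 fold change 0.48, 95% interval -0.52 to 1.47, limma adjusted p = 0.759). It was 0.89 without WT replicate 1 and 0.14 without WT replicate 3.

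**Figure D2:**
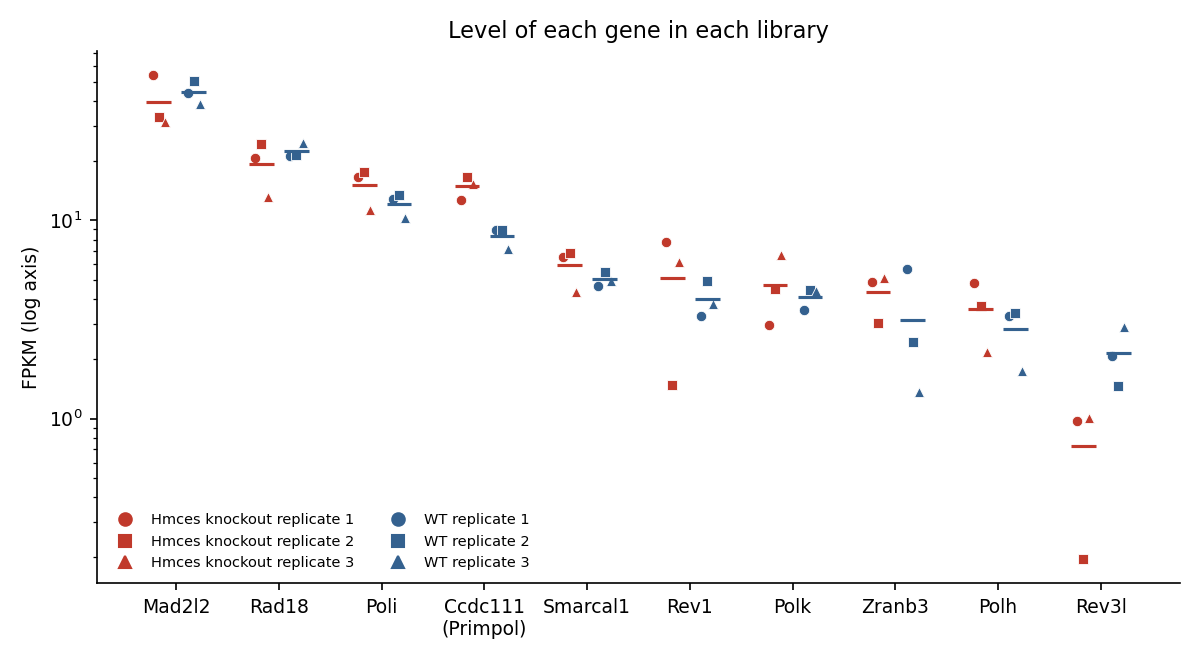
FPKM of the 10 genes in each library on a log axis, ordered by mean level, with Hmces knockout left of WT, 1 symbol per replicate and the group mean as a bar. Ccdc111 and Rev3l are the genes whose groups do not overlap, and knockout replicate 2 holds the lowest value of Rev1 (1.47 FPKM) and of Rev3l (0.196 FPKM).

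FPKM is scaled to transcript length, so levels can be roughly ordered across genes. Scaling leaves differences in coverage by length. For genes of at least 8000 nt, the median level against the other libraries was -0.15 (log2) in knockout replicate 1 and 0.24 in knockout replicate 2. The order of Rev3l (10713 nt) and Mad2l2 (1535 nt) is therefore approximate. Mad2l2 was the most abundant member in all 6 libraries and took 29.9% to 41.0% of the summed FPKM of the 10 genes in Hmces knockout libraries and 38.6% to 43.4% in WT libraries. In knockout cells the order of mean levels was Mad2l2, Rad18, Poli, Ccdc111, Smarcal1, Rev1, Polk, Zranb3, Polh and Rev3l. Neighbours in that order overlapped between libraries, except Mad2l2 above Rad18, Ccdc111 above Smarcal1, and Polh above Rev3l. In WT cells the order was the same except that Polk stood above Rev1. There each of the first 5 genes was separate from the next one down, while Polk, Rev1, Zranb3, Polh and Rev3l overlapped from neighbour to neighbour. Thus the range of Ccdc111 overlapped that of Poli in knockout libraries (12.7 to 16.4 and 11.3 to 17.5 FPKM), whereas in WT libraries it lay below it (7.16 to 8.98 and 10.3 to 13.4 FPKM). Among all genes tested, Mad2l2 stood at a percentile of 70.5 to 81.2 of a library's FPKM values, and Rev3l at 3.04 to 18.9.

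All 10 genes passed the filter of a mean of at least 1 FPKM over the 6 libraries, Rev3l through its WT level. None was called at an adjusted p under 0.05 in limma, where 0.113% of the 11532 genes tested were called, 0.104% higher and 0.00867% lower in knockout cells. At an unadjusted p under 0.05 there was 1 gene of the 10, Ccdc111, on the higher side, against 4.32% of all genes on that side and 9.16% in either direction. Groups without overlap were seen in 2 of the 10, with 1 higher against 7.47% of all genes and 1 lower against 8.34%. The median log2 fold change was 0.15 over the 10 genes and -0.01 over all genes tested, with 7 of 10 positive against 48.1% of all. With a library left out, the median of the 10 ran from 0.08 without knockout replicate 1 to 0.24 without WT replicate 2, and it was also 0.08 without WT replicate 1. Estimated fragments per library, which cover counting error only, ranged from 23 to 881 over the 10 genes. The coefficient of variation was larger in knockout than in WT libraries for 9 of the 10, Zranb3 being the exception, against 63.1% of the 11419 genes with a value in both genotypes. Intervals of single genes were wide. For Rev1 they allowed a ratio of FPKM + 1 between 0.498 and 2.36, and for Mad2l2 between 0.606 and 1.26, so differences within those bounds were not excluded by these libraries.

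**Figure D3:**
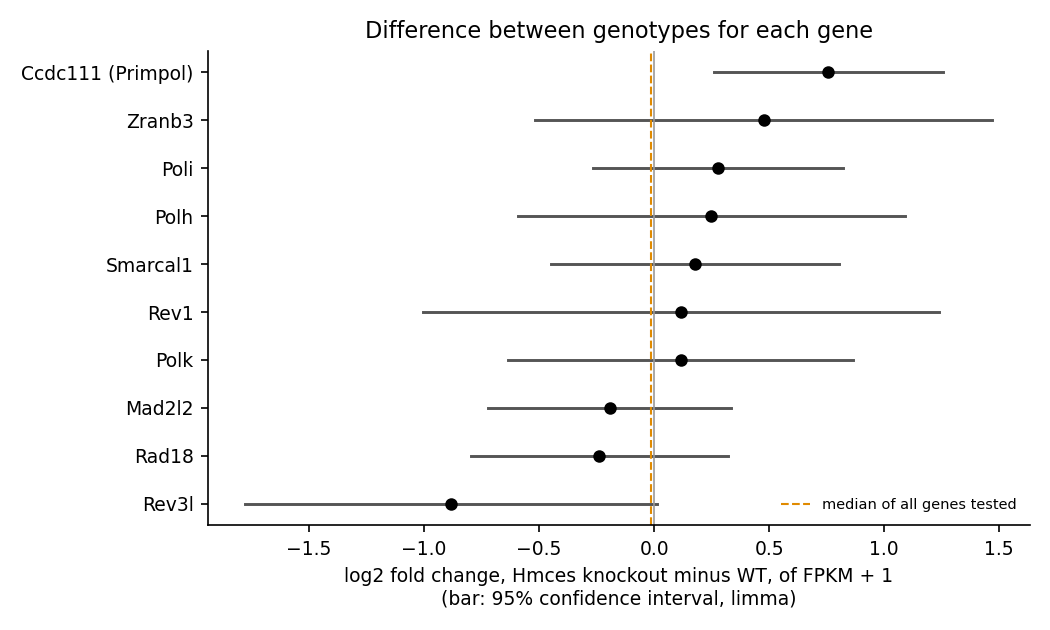
Log2 fold change of FPKM + 1, Hmces knockout minus WT, for each of the 10 genes, with limma's 95% confidence interval as a bar and the median of all genes tested, -0.01, as a dashed line. The interval of Ccdc111, 0.26 to 1.25, excludes 0, that of Rev3l ends at 0.01, and the other 8 lie across 0, none of them adjusted for multiple tests.

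Ratios of 2 genes within a library do not depend on its scaling to a total. Of 7 ratios compared, Rev1 to Rev3l and Ccdc111 to Smarcal1 did not overlap between genotypes. Each holds Rev3l or Ccdc111, whose own groups did not overlap, so these ratios in part restate those differences and are not separate support. The share of such ratios over all gene pairs was not computed. Rev1 to Rev3l was 7.999, 7.51 and 6.13 in Hmces knockout replicates 1 to 3, against 1.60, 3.36 and 1.29 in WT replicates 1 to 3, a 3.76-fold difference of geometric means. It was similar in all 3 knockout libraries although replicate 2 was lowest for both genes. Ccdc111 to Smarcal1, repriming against fork reversal, was 1.93, 2.39 and 3.53 in knockout libraries and 1.91, 1.63 and 1.45 in WT libraries, a 1.54-fold difference in which the closest values were nearly equal. For both, the exact two-sided permutation p was 0.1, the smallest that 3 against 3 libraries allow, and 0.35 adjusted over the 7 ratios.

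The remaining 5 ratios overlapped. Mad2l2 to Rev3l, the polymerase zeta subunits, was 55.8, 170 and 31.1 in Hmces knockout libraries and 21.2, 34.4 and 13.2 in WT libraries (exact permutation p = 0.2, adjusted 0.467). Its log2 difference was 1.64, and 0.97 without knockout replicate 2. Ccdc111 to Polh, repriming against bypass, was 2.62, 4.44 and 7.08 in knockout libraries and 2.71, 2.63 and 4.11 in WT libraries (exact permutation p = 0.4, adjusted 0.56). The ratios Rad18 to Polh, Smarcal1 to Zranb3 and Polh to Polk gave exact permutation p = 0.3, 0.7 and 0.9. The log2 difference of Smarcal1 to Zranb3 was -0.46, and 0.0040 without WT replicate 3. That of Polh to Polk was 0.20, but -0.35 without knockout replicate 1 and -0.16 without WT replicate 3.

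**Figure D4:**
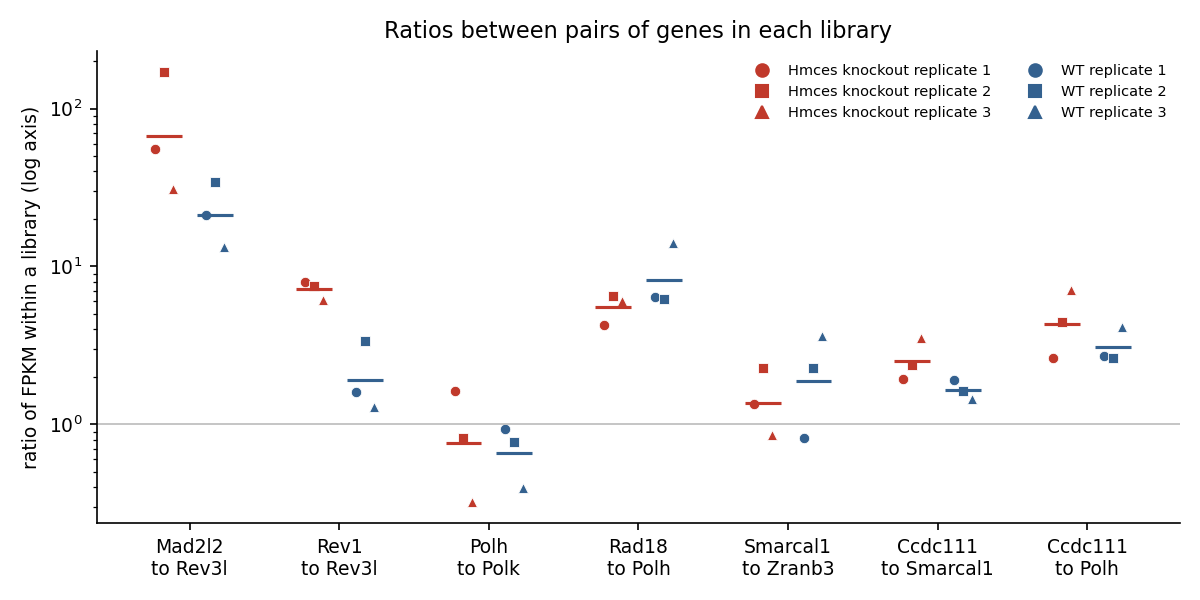
Ratio of FPKM of 2 genes within each library on a log axis, for 7 pairs, with Hmces knockout left of WT, 1 symbol per replicate and the geometric mean as a bar. Rev1 to Rev3l is 6.13 to 7.999 in knockout libraries and 1.29 to 3.36 in WT libraries, and Ccdc111 to Smarcal1 is the other pair without overlap.

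Other genes of damage tolerance at the fork were also without a call. Of 92 further pathway genes, 88 were tested, 0 were called in limma and 7 had an unadjusted p under 0.05, 2 with a positive and 5 with a negative log2 fold change, where 4.32% and 4.84% of all genes tested did. Groups did not overlap in 6 on the higher side and 9 on the lower side, beside 7.47% and 8.34% of all genes, and the median log2 fold change was -0.05. The DNA polymerases Polq, Poln and Polm, and the glycosylase gene Neil2, averaged under 1 FPKM and were not tested.

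Genes that attach or remove ubiquitin on PCNA, the switch that recruits the translesion polymerases, had a median of -0.01 over 16 members. Usp1, which encodes the enzyme that removes the mark set by RAD18, had 26.9, 20.3 and 19.2 FPKM in Hmces knockout libraries, against 32.05, 30.3 and 34.8 FPKM in WT libraries. Every knockout value was lower (log2 fold change -0.54, limma adjusted p = 0.486). Usp7, which encodes a deubiquitinase that stabilises RAD18, had 7.49, 11.1 and 6.65 FPKM in knockout libraries, against 4.62, 5.30 and 2.60 FPKM in WT libraries, all higher (log2 fold change 0.87, limma adjusted p = 0.502).

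The other polymerases of synthesis and gap filling had a median of 0.00 over 7 tested members, with Pold2 (log2 fold change -0.55, limma adjusted p = 0.324) and Pold1 (-0.17, adjusted p = 0.744), both subunits of polymerase delta, at the smallest p. Further fork remodelling helicases had a median of 0.03 over 14 members. Fancm, which encodes a translocase that reverses forks, had 0.0553, 1.66 and 1.06 FPKM in Hmces knockout libraries, against 2.78, 2.35 and 2.64 FPKM in WT libraries, low in both and without overlap. It passed the filter through its WT level, as Rev3l did (log2 fold change -0.998, limma adjusted p = 0.537). Smarcad1, a chromatin remodeller gene, overlapped between genotypes (log2 fold change 0.54, limma adjusted p = 0.651).

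Genes that protect reversed forks from nucleases, listed together with nucleases such as Mre11a, Exo1 and Mus81, had a median of -0.23. Of its 15 members 11 were negative, but the list mixes both sides, so its median gives no direction of fork protection. The smallest p belonged to Brca1, the recombination and fork protection gene (log2 fold change 0.56, limma adjusted p = 0.571), and Mre11a, which encodes the nuclease that degrades unprotected forks (-0.62, adjusted p = 0.587). RPA and fork pausing genes had a median of 0.04 over 16 members, led by Rpa2 (-0.25, adjusted p = 0.640) and Tipin (-0.23, adjusted p = 0.646). Without Hmces itself, genes that make or process abasic sites and protein crosslinks had a median of -0.08 over 13 tested members, led by the glycosylase genes Ung (-0.75, adjusted p = 0.426) and Neil1 (0.68, adjusted p = 0.502). Shieldin genes and partners of REV7 had a median of -0.06 over 7 members, led by Zfp828 (now Champ1; -0.66, adjusted p = 0.599) and 1110034G24Rik (now Shld1; -0.57, adjusted p = 0.668). S phase and cycling markers, given because many fork genes follow the cell cycle, had a median of -0.11, with 12 of 18 negative and 0 called. Their sum was 1574 to 1772 FPKM in knockout libraries and 1729 to 1879 FPKM in WT libraries, and their part in the values above was not tested.

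**Figure D5:**
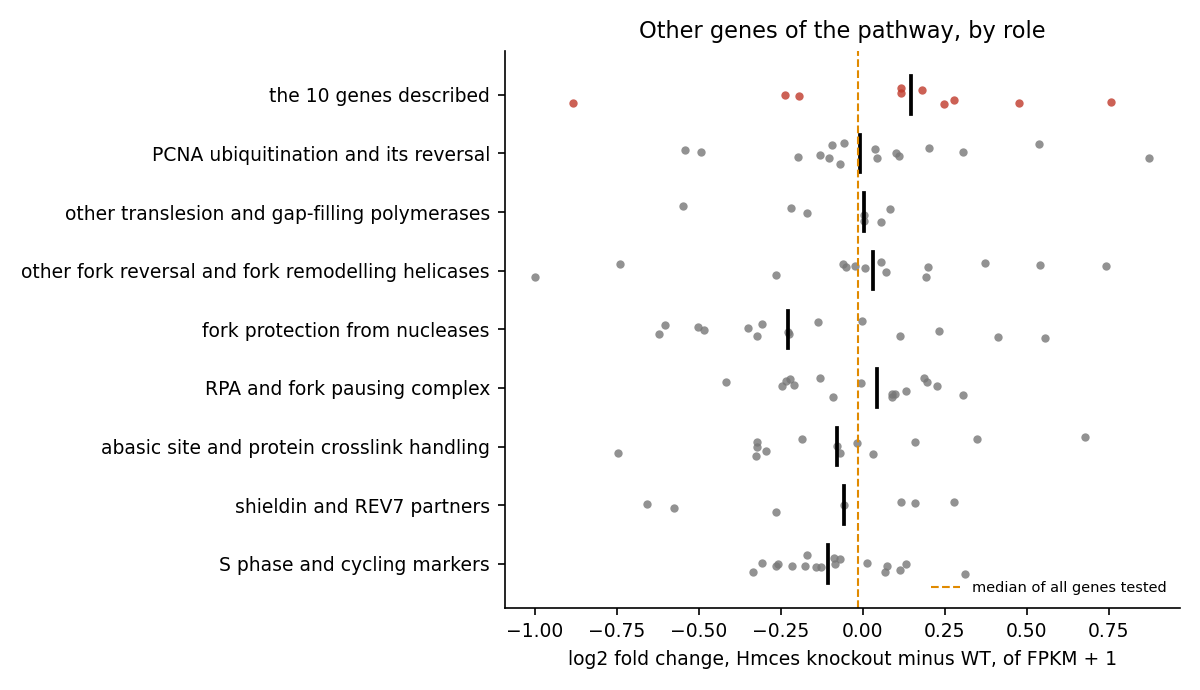
Log2 fold change of FPKM + 1, Hmces knockout minus WT, for each tested gene (points) of the 10 genes described, of 7 lists of other pathway genes and of S phase and cycling markers, with each list's median as a black bar and the median of all genes tested as a dashed line. Hmces is not drawn, the list medians lie between -0.23 and 0.15, and no gene drawn was called.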

How the data were processed

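RNA-seq of 6 libraries was analysed, 3 from Hmces knockout and 3 from WT LT-HSCs. The authors deposited FPKM per gene in 1 table. TopHat2 2.1.1 and Cufflinks 2.2.1, with build mm9, are listed per the submitters' processing notes. Neither the annotation nor the strand setting is stated.

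Of 23235 genes, the 11532 whose FPKM averaged 1 or more across all 6 libraries were tested. Their log2(FPKM + 1) values entered limma (version 3.58.1, R 4.3.3; mean-variance trend, genotype as the only term, two-sided). P-values were adjusted by Benjamini-Hochberg over all genes tested and called under 0.05. The script was run on simulated data with independent noise for each gene and library. That run had no outlying library, so it does not test calls where a library stands apart, as knockout replicate 2 did. Intervals are limma's 95% intervals. Ratios between genes were compared by an exact two-sided permutation test over libraries.

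Because FPKM of low genes moves in steps of 1 fragment, depth could be estimated from 1246 genes with 1 annotated transcript, assuming fragments of 200 nt. It covers counting error only, and without molecular identifiers fragments are not independent molecules. No label ties the libraries to separate mice, so p-values measure the spread between these libraries, which may be technical.

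The 10 genes and all lists were chosen with earlier results of these data known. Older symbols were matched through RefSeq (GRCm38.p6) synonyms. From each pathway list, called genes were named, or the 2 genes with the smallest p where none was called. Marker lists are given by counts. Alternatives covered the pseudocount, the filter, scaling, the variance model, small RNA genes, the replicate block and each library left out.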

Additional observations from a re-analysis of the deposited data

How the results depend on the processing

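None of the 10 genes was called in any of the 17 alternative fits. With all libraries kept, 0 of 105 values changed sign. Of these settings, only the pseudocount and the scaling could move a log2 fold change. The filters, the variance model, small RNA genes and the replicate block leave it as it is. With a library left out, the log2 fold change ran from -0.12 to 0.35 for Polk, from -0.24 to 0.68 for Rev1 and from -0.41 to 0.0057 for Rad18, while Ccdc111 stayed between 0.66 and 0.86 and Rev3l between -1.04 and -0.64. The log2 difference of Polh to Polk ran from -0.35 to 0.81 and that of Smarcal1 to Zranb3 from -1.06 to 0.0040. The cause of these changes of sign was not tested. Over all genes the number called was 13, against 1 when the 18853 genes above 0 in any library were tested. It was 6 with a constant prior variance, 20 with robust estimation and 32 without small RNA genes. With a library left out it was 2 to 19 (5 without knockout replicate 2, 2 without knockout replicate 3 and 7 without WT replicate 2). With a filter of 5 FPKM, Polh, Polk, Rev1, Rev3l and Zranb3 were not tested. The labels do not say that equal replicate numbers mark shared samples. For equal numbers, deviations from the group means correlated over genes at 0.080, 0.011 and 0.035, none over 0.1. Knockout replicates 1 and 3 correlated best with their own number in WT, and knockout replicate 2 with WT replicate 3 (0.048). With the replicate number as a block, 2 genes were called over all genes and none of the 10 (Ccdc111 adjusted p = 0.642, limma). Depth limits the lowest values, such as an estimated 23 fragments of Rev3l in knockout replicate 2 and 61 of Polh in knockout replicate 3.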
